A study of Mus musculus with 9 samples.

Results

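The subject here is 10 liver enzyme genes that dispose of amino acid nitrogen. Of them, 6 encode the urea cycle and its activating enzyme (Cps1, Otc, Ass1, Asl, Arg1 and Nags) and 4 encode enzymes of amino acid breakdown in periportal hepatocytes (Gls2, Hal, Sds and Uroc1), of which the first 3 release ammonia. They were taken by name from a table of 24341 genes, and all 10 had a value in every mouse. Bulk liver was sequenced 48 hours after treatment from wild-type C57BL/6 mice. Of the 9 mice, 3 had received an antibody that activates CD40 (clone FGK45, mice 2, 5 and 9) and 6 were controls labelled PBS (mice 3, 4, 7, 8, 11 and 12). Ages are not given for these mice in the labels. The methods give a general range for the study's mice, and they state that some mice treated with anti-CD40 were left out when B cells in blood did not fall. No other treatment or allele is named for either group, and the labels tie no mouse to a batch.

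The urea cycle turns ammonia, which is toxic, into urea for excretion, and the liver is the organ that carries the complete cycle. It begins in the mitochondria of hepatocytes and ends in their cytosol. Hepatocytes near the portal vein hold most of the cycle and of the enzymes that strip nitrogen from glutamine, histidine and serine, whereas hepatocytes around the central vein capture what ammonia escapes by making glutamine. Amino acid enzymes of the liver are known to respond to glucagon, glucocorticoids and inflammation.

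Values are FPKM, fragment counts scaled to transcript length and to the mapped reads of the library, from libraries that read only the 3′ end of transcripts. Dividing by length makes FPKM of different genes hard to compare in such libraries, but length cancels in a fold change of a single gene. The table had a floor of 0.01 FPKM. Relative depth, read from the steps between low values, lay between 0.991 and 1.13 after anti-CD40 and between 0.870 and 1.06 in controls, around their geometric mean. Absolute depth is unknown. Anti-CD40 mouse 5 stood apart in transcripts of the exocrine pancreas, with a summed FPKM of 1140 over 10 such genes against 28.02 to 196 in the other mice, so results are also given without it. Differences were tested as log2(FPKM + 0.1) with limma over 13807 genes with a mean of at least 0.1 FPKM, 2-sided, with Benjamini-Hochberg adjustment over all of them, and called at an adjusted p under 0.05. The labels name separate mice but not their litters or cages.

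In the livers of mice given anti-CD40, 8 of the 10 enzymes were lower than in controls and 0 were higher (limma). Uroc1, Otc and Gls2 fell most, to between 26.0% and 29.6% of the control mean. Ass1 fell to 35.1%, and Cps1, Nags, Asl and Hal fell to between 52.4% and 54.2%. Arg1 and Sds did not pass the test. Among all genes tested, 21.7% were called lower and 23.5% higher, 45.1% in all, and among the 4451 genes with a mean of at least 10 FPKM, as all 10 enzymes had, 38.7% were called lower. The median log2 fold change was -0.94 for the 10 enzymes, 0.0056 for all genes tested and -0.25 for the genes with a mean of at least 10 FPKM. For the same 8 enzymes every anti-CD40 mouse lay below every control mouse, which held for 19.6% of all genes tested and 35.9% of those with a mean of at least 10 FPKM. The opposite, every anti-CD40 mouse above every control mouse, held for 0 of the 10 enzymes and 22.7% of all genes tested. In bulk tissue, fewer hepatocytes and less of a transcript per hepatocyte cannot be told apart.

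**Figure D1:**
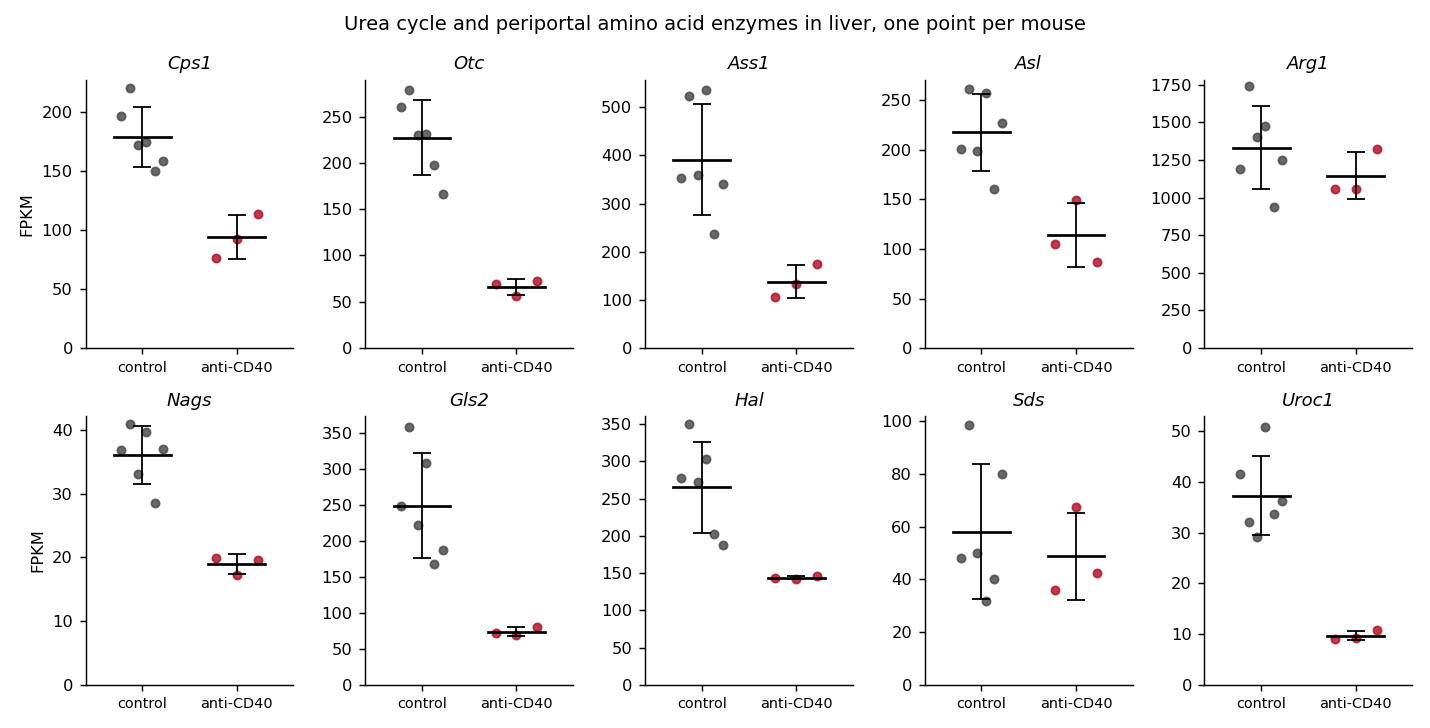
FPKM of the 10 enzymes in each mouse, with 6 control mice in grey and 3 anti-CD40 mice in red; lines and bars are the group mean and SD, and every vertical axis starts at 0. The groups are separate for 8 enzymes, such as Otc at 65.7 against 227 FPKM, and overlap for Arg1 and Sds.

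The count depended on the scale used. It was 8 with each of the 9 mice left out in turn, mouse 5 included. By the exact permutation test 8 had an unadjusted p under 0.05, each at 0.0238, the smallest 9 mice allow. Adjusted over all genes tested, the smallest permutation p was 0.0562, so that test could call 0 genes at the threshold used with limma. It was 6 with quantile normalization, where Asl (adjusted p = 0.0563 from limma) and Hal (adjusted p = 0.154 from limma) were lost. Saa1, Saa2 and Saa3, acute phase genes, made up 25.4% to 25.9% of all FPKM after anti-CD40 and at most 0.380% in controls. With these genes left out and each mouse rescaled, 7 enzymes were lower and Hal was lost (adjusted p = 0.0664 from limma), and the median over all genes tested moved from 0.0056 to 0.35 (log2).

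The chain starts with Nags, which makes N-acetylglutamate, the compound that Cps1 needs to work. Nags (chromosome 11 of mm10, from 102145513 to 102149528) had an FPKM of 20.0, 17.1 and 19.7 in anti-CD40 mice 2, 5 and 9, and from 28.5 through a median of 36.9 to 40.9 in controls. The anti-CD40 mice were close together and all below the lowest control. Nags changed by -0.92 on the log2 scale (SE 0.13, adjusted p = 0.000256 from limma). An antisense gene, Gm11586, overlaps Nags in GENCODE M21, and whether the FPKM were made by strand is not given in the sources used here.

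Cps1, carbamoyl-phosphate synthetase, joins ammonia to bicarbonate in the mitochondrion and sets the entry into the cycle. Cps1 (chromosome 1, from 67123027 to 67231267) had an FPKM of 76.1, 92.4 and 114 in anti-CD40 mice 2, 5 and 9, and from 151 through a median of 174 to 220 in controls. Mouse 9 was the highest of the treated mice and still under every control. Cps1 changed by -0.94 on the log2 scale (SE 0.16, adjusted p = 0.000769 from limma), a 1.91-fold decrease.

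Otc, ornithine transcarbamylase, makes citrulline in the mitochondrion and is encoded on the X chromosome (from 10252359 to 10321024). Otc stood at 68.9, 55.9 and 72.1 FPKM in anti-CD40 mice 2, 5 and 9, and from 166 through a median of 231 to 279 in controls. The gap between the groups was wider than the whole range of the treated mice. Otc had the largest decrease of the cycle, with a log2 fold change of -1.78 (SE 0.17, adjusted p = 1.71e-05 from limma), a 3.43-fold decrease. Of all genes tested, 2.70% had a lower log2 fold change.

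In the cytosol, Ass1 joins citrulline to aspartate, and Asl splits the product into arginine and fumarate. Ass1 (chromosome 2, from 31470270 to 31520670) had an FPKM of 106, 132 and 174 in anti-CD40 mice 2, 5 and 9, and from 237 through a median of 356 to 536 in controls, a log2 fold change of -1.49 (SE 0.26, adjusted p = 0.000927 from limma). All treated mice were below all controls, although the controls themselves differed 2.26-fold from lowest to highest. The pseudogene Gm5424 is listed at the position of Ass1 and was at the floor in all 9 mice, and how reads that fit both were assigned is not given in the sources used here.

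Asl (chromosome 5, from 130011503 to 130024331) had an FPKM of 105, 149 and 87.0 in anti-CD40 mice 2, 5 and 9, and from 160 through a median of 214 to 262 in controls. Mouse 5, the highest of the treated mice, came close to the lowest control, mouse 11. The log2 fold change was -0.95 (SE 0.20, adjusted p = 0.00283 from limma), and it was -1.16 without mouse 5.

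Arg1, liver arginase, releases urea from arginine and regenerates ornithine. Arg1 (chromosome 10, from 24915207 to 24927470) had an FPKM of 1056, 1054 and 1324 in anti-CD40 mice 2, 5 and 9, and from 937 through a median of 1324 to 1742 in controls. The treated mice lay inside the control range, and control mouse 11 was the lowest of all 9. The log2 fold change was -0.20 (SE 0.19, 95% interval -0.61 to 0.21, adjusted p = 0.407 from limma), and its sign depended on the scale, at 0.28 with quantile normalization and 0.17 without the Saa genes.

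Gls2, the glutaminase of liver, frees ammonia from glutamine in the mitochondria of periportal hepatocytes. Gls2 (chromosome 10, from 128194635 to 128211794) had an FPKM of 71.5, 69.1 and 80.8 in anti-CD40 mice 2, 5 and 9, and from 168 through a median of 236 to 359 in controls. The highest treated mouse was far below the lowest control. Gls2 changed by -1.71 on the log2 scale (SE 0.23, adjusted p = 0.000160 from limma), a 3.26-fold decrease. Its entry in the table shares a position with Spryd4 on the opposite strand.

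Hal and Uroc1 encode consecutive enzymes of histidine breakdown. Hal removes ammonia from histidine to leave urocanate, and Uroc1 hydrates urocanate. The 250 bases before the transcription start of Hal and Uroc1 are shown, with those of Otc, the enzyme of the cycle that fell most. Whether these sequences bear on the fold changes was not tested. They are counted from the start RefSeq gives (GRCm38.p6, the build of mm10), which for Otc lies before that of the deposited table, and the RefSeq promoter table matched 5 of the 10 enzymes. All 3 are on the plus strand, Hal at chr10:93488518-93488767, Uroc1 at chr6:90333039-90333288 and Otc at chrX:10252055-10252304. Capitals mark matches on either strand to the C/EBP motif TTGCNNAA, the CCAAT box CCAAT and the TATA box TATAAA.
Hal: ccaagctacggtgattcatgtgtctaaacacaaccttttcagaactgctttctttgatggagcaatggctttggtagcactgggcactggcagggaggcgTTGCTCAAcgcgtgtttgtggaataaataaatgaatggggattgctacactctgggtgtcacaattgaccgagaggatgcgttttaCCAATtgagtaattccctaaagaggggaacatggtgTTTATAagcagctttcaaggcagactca
Uroc1: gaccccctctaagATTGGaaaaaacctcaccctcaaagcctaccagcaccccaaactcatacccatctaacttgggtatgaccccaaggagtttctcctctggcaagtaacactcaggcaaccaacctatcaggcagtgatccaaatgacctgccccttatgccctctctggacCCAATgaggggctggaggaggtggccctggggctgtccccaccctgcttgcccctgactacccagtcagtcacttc
Otc: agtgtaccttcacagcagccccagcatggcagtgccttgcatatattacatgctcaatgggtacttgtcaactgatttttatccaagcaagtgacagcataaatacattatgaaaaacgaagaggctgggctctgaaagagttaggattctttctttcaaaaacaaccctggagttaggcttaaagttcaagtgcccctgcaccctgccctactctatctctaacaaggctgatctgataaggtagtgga

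The Hal window holds a match to each of these motifs, the Uroc1 window holds CCAAT boxes on both strands, and the Otc window holds none of them. The C/EBP motif, bound by a factor family with a known role in hepatocyte genes, was present in 9.56% of 32851 promoter windows of this length, the TATA box in 12.4% and the CCAAT box in 33.8%. The motifs do not overlap each other in the letters searched. The cyclic AMP response element TGACGTCA, found in 1.55% of windows, was in none of the 5 windows. A match in letters does not show that a factor binds there.

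Hal (chromosome 10, from 93488768 to 93516743) had an FPKM of 143, 142 and 146 in anti-CD40 mice 2, 5 and 9, and from 188 through a median of 275 to 350 in controls. The treated mice were nearly identical. The log2 fold change was -0.85 (SE 0.19, adjusted p = 0.00416 from limma), the smallest of the 8 called.

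Uroc1 (chromosome 6, from 90333289 to 90364548) had an FPKM of 9.11, 9.23 and 10.8 in anti-CD40 mice 2, 5 and 9, and from 29.2 through a median of 34.97 to 50.8 in controls. The groups were widely separated. Uroc1 changed by -1.91 on the log2 scale (SE 0.17, adjusted p = 1.16e-05 from limma), a 3.76-fold decrease and the largest among the 10 enzymes on the scale of deposited FPKM. Within each mouse the ratio of Uroc1 to Hal was lower after anti-CD40, as given with the other ratios.

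Sds, serine dehydratase, turns serine into pyruvate and ammonia and is known to rise in fasting and under glucagon. Sds (chromosome 5, from 120476547 to 120503623) had an FPKM of 36.1, 67.5 and 42.5 in anti-CD40 mice 2, 5 and 9, and from 32.0 through a median of 49.1 to 98.6 in controls. All treated mice lay inside the control range, and control mice 4 and 12 lay above them. The log2 fold change was -0.20 (SE 0.34, 95% interval -0.96 to 0.57, adjusted p = 0.668 from limma), and it ran from -0.46 without anti-CD40 mouse 5 to -0.0064 without anti-CD40 mouse 2 and was -0.021 without control mouse 4. Sds varied most among controls, 3.08-fold from lowest to highest. Its entry shares a position with Plbd2 on the opposite strand.

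By FPKM in control mice the order ran from Arg1 at 1332 through Ass1 (392), Hal (265), Gls2 (249), Otc (227), Asl (218) and Cps1 (179) to Sds (58.1), Uroc1 (37.3) and Nags (36.0). Ranges of neighbours in this order overlapped, except that Arg1 lay above Ass1 and Cps1 above Sds in every control. After anti-CD40 the order was Arg1 (1145), Hal (144), Ass1 (137), Asl (114), Cps1 (94.1), Gls2 (73.8), Otc (65.7), Sds (48.7), Nags (18.9) and Uroc1 (9.71). These levels are per transcript length in 3′ libraries, so the place of a gene in the order is less certain than its shift between groups.

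Control mice differed in level across several enzymes. Control mouse 4 had the highest control value for 8 of the 10 enzymes, and control mouse 11 had the lowest for 6. The median of the 6 cycle genes, on the log2 scale relative to the control mean, was 0.31 in control mouse 4, -0.37 in control mouse 11 and between -0.11 and 0.16 in the other controls. In anti-CD40 mice 2, 5 and 9 it was -1.12, -0.998 and -0.99, below every control. Mouse 9 had the highest treated value for 7 enzymes but the lowest for Asl.

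Ratios of gene pairs within a mouse do not depend on how mice are scaled, so they show whether steps of the pathway moved by different amounts. Of 10 pairs chosen, 6 differed between groups at an adjusted p of 0.0397 (exact permutation test over 84 splits, 2-sided, p = 0.0238 for each, the smallest this design can give, Benjamini-Hochberg over the 10 pairs). The pairs were chosen with earlier results of these data known, so these p-values describe the separation and are no independent support. The share of arbitrary gene pairs that separate in this way was not computed. The log2 ratio of Otc to Cps1, the neighbouring mitochondrial steps, was -0.51 ± 0.32 (SD, n = 3) after anti-CD40 and 0.34 ± 0.14 (SD, n = 6) in controls, a difference of -0.84 (95% interval -1.12 to -0.48). Gls2 to Cps1 differed by -0.77 (interval -1.24 to -0.33) and Uroc1 to Hal by -1.06 (interval -1.55 to -0.49). Arg1 to Asl rose by 0.75 (interval 0.089 to 1.399), with anti-CD40 mouse 5 only just above the highest control. Without mouse 9 that difference was 0.46 and without mouse 5 it was 1.02.

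Other steps were not separated by this test. Nags to Cps1 differed by 0.018 (interval -0.39 to 0.49, exact permutation p = 0.810), and Ass1 to Otc by 0.29 (interval -0.41 to 0.98, exact permutation p = 0.286). Asl to Ass1 differed by 0.54 (interval -0.40 to 1.17, exact permutation p = 0.119), with mouse 9 among the controls and mice 2 and 5 above them. It was 0.90 without mouse 9 and 0.31 without mouse 5, and Ass1 to Otc was 0.50 without mouse 2 and 0.18 without mouse 9. The intervals of these last pairs, Asl to Ass1 and Ass1 to Otc, take in differences as large as that of Arg1 to Asl, and the interval of Nags to Cps1 does not. The call on the 6 pairs was at the limit of the design: with 1 control mouse left out, or a pseudocount of 1, 0 of the 10 pairs had an adjusted p under 0.05, whereas the differences themselves kept their direction in these 6 pairs.

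**Figure D2:**
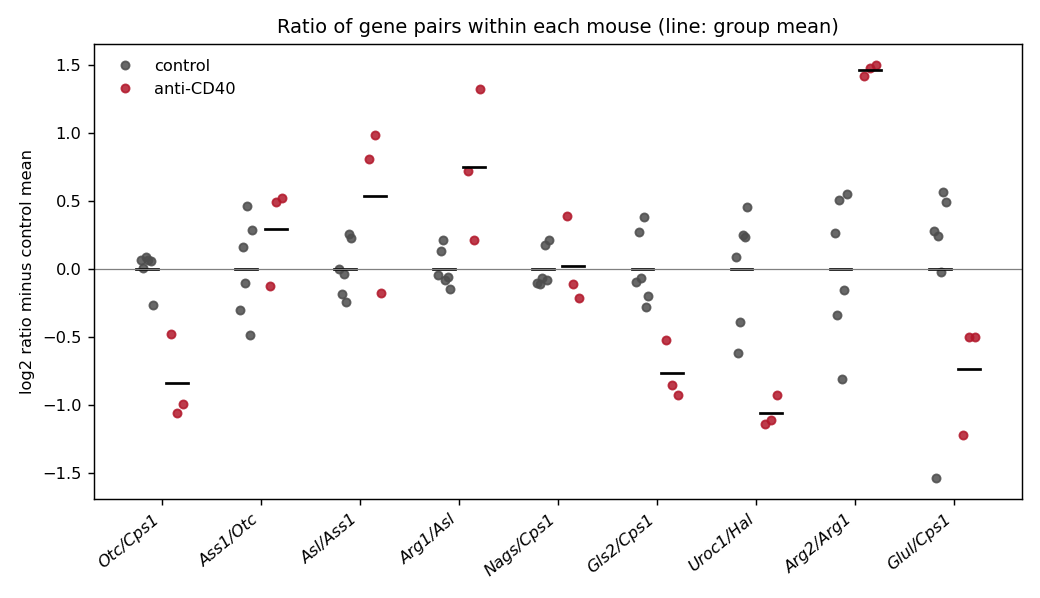
Log2 ratio of gene pairs within each mouse, minus the control mean of that pair, for 6 control mice (grey) and 3 anti-CD40 mice (red), with lines at group means. Arg2 to Arg1 lies above the controls in all treated mice, with a difference of 1.46, Uroc1 to Hal lies below them, with -1.06, and Nags to Cps1 shows none beyond the spread, at 0.018.

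Arg2, a relative of Arg1, and Sdsl, a relative of Sds, were higher after anti-CD40. Not all genes of the list labelled arginine use rose, and Agmat, given below, fell. Arg2, the mitochondrial arginase found mostly outside hepatocytes, had an FPKM of 0.269, 0.284 and 0.390 in anti-CD40 mice 2, 5 and 9, and from 0.01 through a median of 0.0835 to 0.1599 in controls, a log2 fold change of 1.26 (SE 0.32, adjusted p = 0.00914 from limma). Control mice 8 and 11 were at the floor, and the entry shares a position with Vti1b. Its level was low in both groups, so the size depends on the pseudocount: the difference in the log2 ratio of Arg2 to Arg1 was 1.46 with 0.1 and 0.48 with 1. Sdsl, a relative of Sds, rose from 13.3 ± 3.48 (SD, n = 6) to 36.3 ± 1.403 FPKM (SD, n = 3), a log2 fold change of 1.48 (SE 0.20, adjusted p = 0.000195 from limma).

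**Figure D3:**
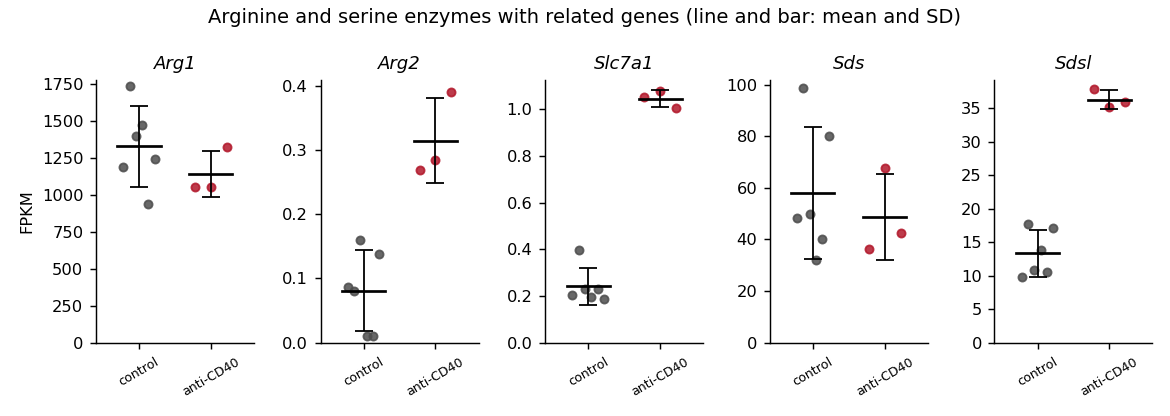
FPKM of Arg1 and Sds in each mouse, beside Arg2, the transporter Slc7a1 and Sdsl, genes that were called higher. Lines and bars are the mean and SD of 6 control mice (grey) and 3 anti-CD40 mice (red). Genes called lower, such as Agmat, are not shown. All treated mice are above all controls for Arg2, Slc7a1 and Sdsl and among them for Arg1 and Sds.

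The list labelled arginine use also holds genes that act on products of arginine or alongside its use. Of 13 tested, 5 were lower (38.5%) and 3 higher (23.1%), with a median log2 fold change of -0.18. The 5 lower were Odc1, Oaz1, Gamt, Agmat and Gch1, none of which uses or imports arginine itself. Of the tested genes that do, Arg2 and Slc7a1 were higher. Nos3 (0.18, SE 0.25) and Gatm (-0.10, SE 0.39) did not pass. Among all genes tested, 21.7% were lower and 23.5% higher. Slc7a1, a transporter of arginine and other cationic amino acids, rose from 0.241 ± 0.0777 (SD, n = 6) to 1.04 ± 0.0359 FPKM (SD, n = 3), a log2 fold change of 1.77 (SE 0.20, adjusted p = 6.27e-05 from limma). Gamt, which completes creatine synthesis, fell from 193 ± 61.0 (SD, n = 6) to 21.3 ± 4.79 FPKM (SD, n = 3), a log2 fold change of -3.14 (SE 0.26, adjusted p = 8.24e-06 from limma). The entry of Gamt spans chromosome 10 from 79697305 to 80369637 and shares that position with 48 other genes, so how its reads were assigned is less certain. Agmat, agmatinase, had a log2 fold change of -2.23 (SE 0.19). Nos2, which makes nitric oxide from arginine, was listed at the floor of 0.01 FPKM in all 6 controls and at 0.214, 0.114 and 0.0816 in anti-CD40 mice 2, 5 and 9. Its mean was too low for the test across genes.

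Among listed partners of the urea cycle, for substrate supply, transport and enzyme modification, 10 of 15 tested were lower (66.7%) and 0 higher. Their median log2 fold change was -0.84. The share lower was 21.7% over all genes tested and 38.7% over those with a mean of at least 10 FPKM. Car5a, the mitochondrial carbonic anhydrase that provides bicarbonate to Cps1, stood at 2.39, 4.75 and 0.892 in anti-CD40 mice 2, 5 and 9, against 19.5 to 37.9 FPKM in controls, a log2 fold change of -3.55 (SE 0.41, adjusted p = 6.97e-05 from limma). This decrease was larger than that of any of the 10 enzymes, and the entry shares a position with BC048644. Slc38a3, a glutamine transporter of periportal hepatocytes, had a log2 fold change of -2.004 (SE 0.40), and Glud1, which releases ammonia from glutamate, one of -0.84 (SE 0.13, adjusted p = 0.000482 from limma). The mitochondrial carriers did not pass. Slc25a15, the ornithine carrier, was 196 ± 57.4 FPKM (SD, n = 3) after anti-CD40 and 179 ± 19.4 (SD, n = 6) in controls (log2 fold change 0.10, SE 0.17). Slc25a13, the aspartate and glutamate carrier, had a log2 fold change of -0.36 (SE 0.63). Its values split across both groups, at 42.7 in anti-CD40 mouse 5, 71.4 and 67.1 in control mice 4 and 12, and 206 to 268 in the others. Anti-CD40 mouse 5 and control mice 4 and 12 were also the highest for Sds. What sets these mice apart was not tested, and the split widens the SE of Slc25a13. The transporter Slc7a2 was left out because its estimate failed in control mice 4 and 7.

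Of 14 other genes tested for histidine, serine, glycine and threonine breakdown, 11 were lower (78.6%) and 2 higher, with a median of -1.14. By comparison, 21.7% of all genes tested and 38.7% of those with a mean of at least 10 FPKM were lower. Amdhd1, the enzyme after Uroc1, stood at 22.6, 23.8 and 23.2 in anti-CD40 mice 2, 5 and 9 and 63.3 to 89.3 FPKM in controls, a log2 fold change of -1.75 (SE 0.12, adjusted p = 2.35e-06 from limma). Ftcd, which ends the pathway in folate, had a log2 fold change of -0.84 (SE 0.15). So all 4 enzymes from histidine to glutamate were called lower. The genes that rose were Sdsl and Hdc, histidine decarboxylase, which makes histamine and is expressed mainly in mast cells, basophils and other leukocytes. Hdc went from 3.84 ± 1.21 (SD, n = 6) to 16.4 ± 2.74 FPKM (SD, n = 3), a log2 fold change of 2.11 (SE 0.25). Sardh and Agxt, for sarcosine and glyoxylate, fell by 2.13 and 1.96 on the log2 scale.

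For aromatic amino acids 13 of 16 genes tested were lower and 0 higher (median -1.39), and for branched chain amino acids, lysine and proline 18 of 20 were lower and 0 higher (median -1.28). Afmid, of tryptophan breakdown, had a log2 fold change of -2.59 (SE 0.18), Prodh2, of hydroxyproline breakdown, one of -2.68 (SE 0.19) and Aldh7a1, of lysine breakdown, one of -2.05 (SE 0.16). The entries of Afmid and Aldh7a1 share positions with other genes. Tat, tyrosine aminotransferase, stood at 75.7, 225 and 157 in anti-CD40 mice 2, 5 and 9 and 86.4 to 374 FPKM in controls, and did not pass (log2 fold change -0.67, SE 0.47, adjusted p = 0.273 from limma). Medians of these breakdown lists ran from -1.14 to -1.39, which takes in the periportal enzymes (-1.28), whereas that of the urea cycle genes (-0.94) was nearer 0. These list counts are on the scale of deposited FPKM and were not made on the other scales. On that scale 21.7% of all genes tested were lower, and 38.7% of those with a mean of at least 10 FPKM.

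**Figure D4:**
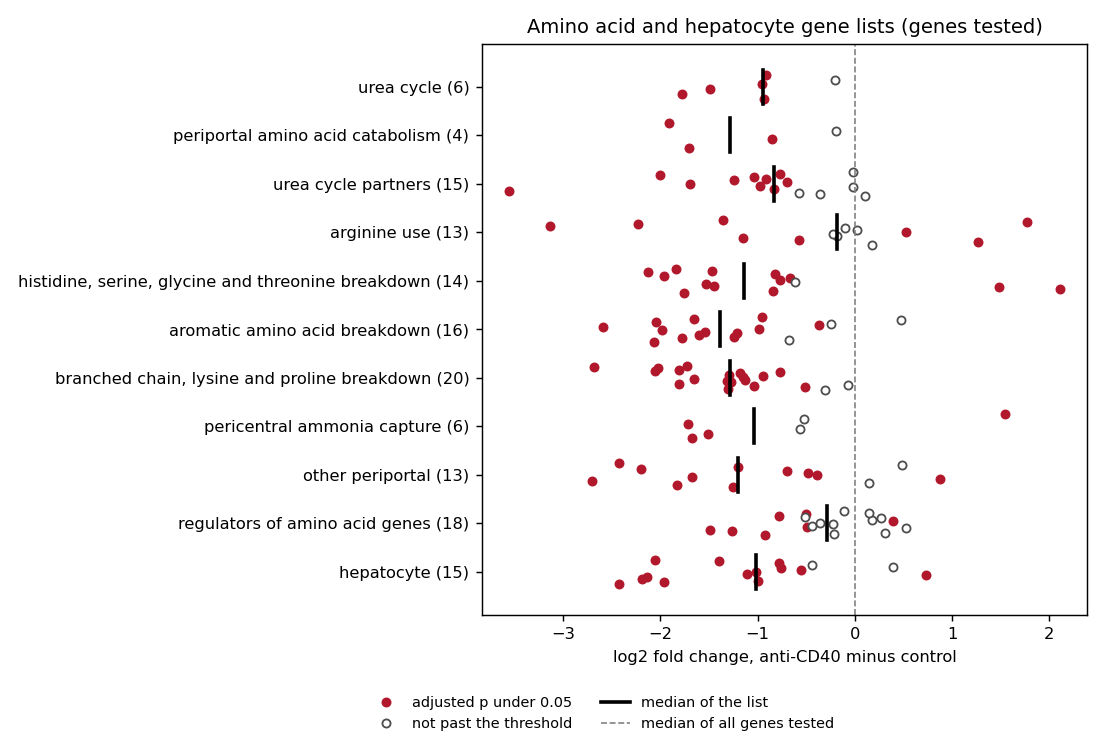
Log2 fold change of each gene tested in the lists named at left (number of genes in parentheses), with filled points for an adjusted p under 0.05 from limma, black bars for list medians and a dashed line for the median of all genes tested. Medians of the urea cycle (-0.94), the periportal enzymes (-1.28) and the hepatocyte list (-1.02) are all to the left of the dashed line, on the scale of deposited FPKM.

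The pericentral genes for ammonia capture included several that were lower. Glul, glutamine synthetase, which captures ammonia around the central vein, stood at 39.0, 78.2 and 96.3 in anti-CD40 mice 2, 5 and 9, and from 90.6 through a median of 256 to 286 FPKM in controls, a log2 fold change of -1.68 (SE 0.38, adjusted p = 0.00491 from limma). The groups overlapped at control mouse 4, the highest control for most of the 10 enzymes and the lowest control for Glul. The log2 ratio of Glul to Cps1 differed by -0.74 (interval -1.71 to 1.04, exact permutation p = 0.190). Oat, ornithine aminotransferase, had a log2 fold change of -1.51 (SE 0.31) and Slc1a2, a glutamate transporter, one of -1.72 (SE 0.27). Of the 6 genes listed for this zone 3 were lower and 1 was higher, with a median of -1.04. Among all genes tested, 21.7% were lower and 23.5% higher. Of 13 tested genes of the periportal zone outside amino acid breakdown, 10 were lower and 1 higher, with a median of -1.20. Sult5a1 (-2.70, SE 0.42) and Igfals (-2.43, SE 0.40) fell most, and Ctsc, a lysosomal protease also abundant in leukocytes, rose (0.87, SE 0.18).

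Among 18 tested regulators of amino acid genes, 6 were lower (33.3%) and 1 higher (median -0.29). The share lower lies between that of all genes tested (21.7%) and that of genes with a mean of at least 10 FPKM (38.7%). The count therefore does not set regulators apart from other genes. Cebpa, a factor of the hepatocyte state, stood at 35.6, 40.6 and 40.2 in anti-CD40 mice 2, 5 and 9 and 77.3 to 178 FPKM in controls, a log2 fold change of -1.49 (SE 0.23, adjusted p = 0.000489 from limma). Klf15, which is known to promote amino acid breakdown in fasting, had a log2 fold change of -1.26 (SE 0.25), and Creb1 one of 0.39 (SE 0.14, adjusted p = 0.0383 from limma). Hnf4a (-0.44, SE 0.23) and Ppargc1a (0.31, SE 0.28) did not pass.

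The tissue carried its defining markers in every mouse, and these also moved. Of 15 tested hepatocyte markers, 12 were lower and 1 higher, with a median log2 fold change of -1.02, and their summed FPKM ran from 29674 to 35815 after anti-CD40 and from 64368 to 127332 in controls. Alb, albumin, had a log2 fold change of -2.43 (SE 0.18), and Apob was the marker that rose (0.74, SE 0.20). Neutrophil markers were higher in all 9 tested, with a summed FPKM of 4220 to 5207 against 18.4 to 156, and 9 of 12 monocyte and macrophage markers were higher (374 to 502 against 48.0 to 84.0). Kupffer cell markers were lower in 9 of 10 (130 to 145 against 505 to 787). Of 8 T and NK cell markers 7 were higher (11.1 to 14.1 against 3.57 to 5.62), of 6 cholangiocyte markers 3 (89.3 to 133 against 10.05 to 23.4), and of 10 endothelial markers 5 were lower and 3 higher (109 to 116 against 120 to 145). Of 9 pancreas markers 1 was higher (28.02 to 1140 against 71.2 to 196), and Amy2a5 was at the floor in every mouse. The part of these cell markers in the values of the enzymes was not tested.

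Set against the hepatocyte markers, the enzymes looked different from their place among all genes. These markers moved themselves, with 12 of 15 lower and a median log2 fold change of -1.02. Centring on them therefore compares the enzymes with other genes that fell, and it is not a correction for hepatocyte content. When each mouse was centred on the median of the hepatocyte list, which holds none of the 10 enzymes, the median over all genes tested moved to 1.22 (log2), with 10210 genes called higher and 261 lower. Uroc1 alone of the 10 enzymes stayed called lower (log2 fold change -0.69, adjusted p = 0.0270 from limma), whereas Arg1 (1.02, adjusted p = 0.00940 from limma) and Sds (1.02, adjusted p = 0.0345 from limma) were called higher. Otc (-0.56), Gls2 (-0.49) and Ass1 (-0.27) remained negative without passing, and Cps1 (0.28), Asl (0.27), Nags (0.30) and Hal (0.36) turned positive without passing.

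**Figure D5:**
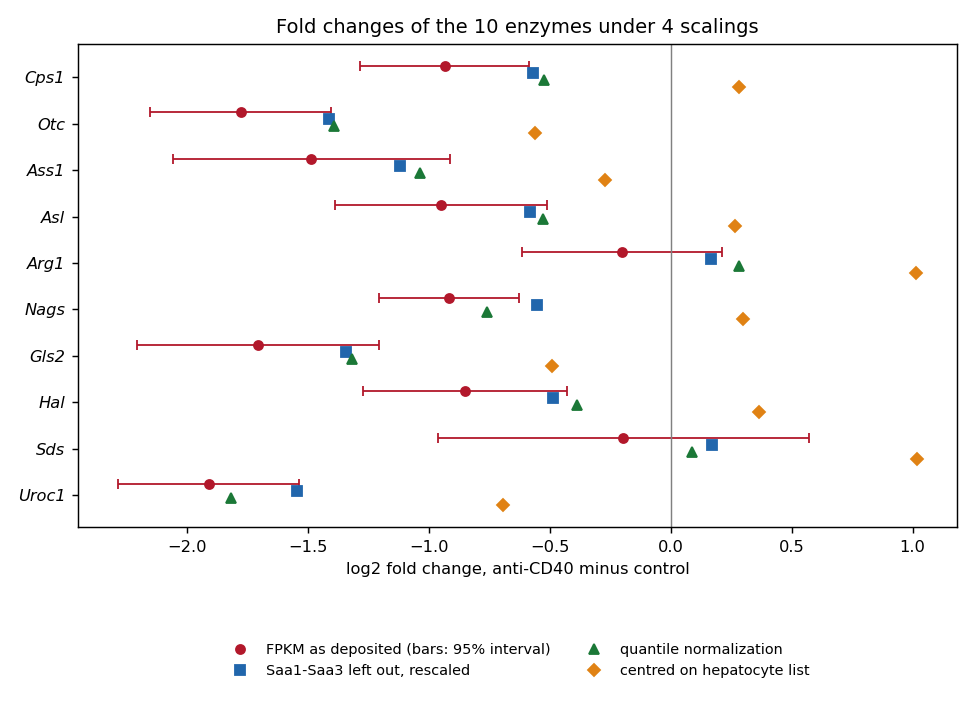
Log2 fold change of each enzyme with FPKM as deposited (red, bars are 95% intervals), without the Saa genes and rescaled (blue), with quantile normalization (green) and centred on the hepatocyte list (orange). The first 3 scales put 8 enzymes below 0 and differ in sign for Arg1 and Sds, and centring on hepatocyte genes moves Cps1, Asl, Nags and Hal to the other side of 0.

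The genes whose pattern over the 9 mice was most like the median of the 6 urea cycle genes were sought among 10145 other genes with a mean of at least 1 FPKM, by the root mean square difference of log2 values relative to the control mean. The closest 5 were Gm10658 (0.117), Klhl13 (0.127), Uqcrh (0.128), Uqcr11 (0.133) and Mmaa (0.140). By the same measure Nags lay at 0.129, Cps1 at 0.156 and Asl at 0.208 from that median. Ass1 lay at 0.336, Otc at 0.469 and Arg1 at 0.495. The median was taken from these same 6 genes, so those with middling fold changes lie near it by construction.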

How the data were processed

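Liver RNA of 3 anti-CD40 and 6 control mice was sequenced from the 3′ end (QuantSeq). The authors aligned reads to mm10 with STAR and deposited FPKM made with Cufflinks and Cuffdiff. The gene annotation and the filter on the table are not given in the sources used here. Mice were grouped by title. Of 24341 genes, 15 with a failed estimate were left out. Positions are from the deposited table, with starts moved to count from 1.

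log2(FPKM + 0.1) was fitted with limma 3.58.1 in R 4.3.3 (lmFit, eBayes with trend), treatment as the only factor. Gene pairs were compared by an exact permutation test in Python 3.11.15 (numpy 2.4.6, pandas 2.3.3, scipy 1.17.1), with intervals from the shifts that test does not reject. Figures used matplotlib 3.10.9. On simulated data of 13807 genes with independent noise, 200 of them changed, limma recovered 47% of genes changed by a log2 fold change of 1. It recovered 93% of those changed by 2, with 8 false calls. In the data 45.1% of genes were called, so these rates need not hold for this comparison. Named genes were the 10 enzymes, their pair partners, up to 2 genes that rose and 2 that fell most among those called in each pathway list, 12 set by name and the 5 most similar in pattern. Hepatocyte examples, the Saa genes, Slc7a2, Amy2a5, some arginine list genes and genes sharing a position with an enzyme are named outside this rule. A few genes and 1 pair that enter these counts are not reported here. The enzymes, lists and pairs were chosen with earlier results of these data known. Alternatives were other pseudocounts, filters, scalings, moderation, array weights and leaving out each mouse.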

Additional observations from a re-analysis of the deposited data

Results flagged for a closer look

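In 23 sets of control values examined (10 enzymes, 10 ratios and 3 partner genes), 1 mouse stood apart from the other 5 in 2 sets, where chance gives about 1.15. The log2 ratio of Otc to Cps1 was 0.065 in control mouse 12 and 0.34 to 0.42 in the other controls, a gap of 0.773 of the range. The log2 ratio of Glul to Cps1 was -1.28 in control mouse 4 and 0.23 to 0.82 in the others, a gap of 0.720 of the range.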

How the results depend on the processing

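Every enzyme had a mean FPKM of at least 9.71 in both groups, absolute depth is unknown and 3 treated mice leave wide intervals. The 8 enzymes called lower stayed 8 under both other pseudocounts, no filter or a mean of at least 1 FPKM, median of ratios, moderation made robust or without a trend, weights per mouse and every mouse left out. The exact permutation test gave 8 at an unadjusted p under 0.05, and 0 after adjustment, where its smallest p is 0.0562. The counts were 6 with quantile normalization, 7 without the Saa genes, and 1 lower with 2 higher when centred on the hepatocyte list. Over all genes, 1647 were lower and 5635 higher without the Saa genes (77.4% of calls higher, against 52.0%), and 261 lower and 10210 higher when centred on the hepatocyte list (97.5% higher). The reversed fold changes were those of Arg1 (0.28 with quantile normalization, 0.17 without the Saa genes, 1.02 when centred), Sds (0.087, 0.17 and 1.02), Cps1 (0.28 when centred), Asl (0.27), Nags (0.30) and Hal (0.36). Which scale is nearer to the cells was not tested. Of the 10 gene pairs, 6 passed, and 0 with a pseudocount of 1 and 0 to 0 with each control mouse left out, where the smallest exact p is 0.0357. With an anti-CD40 mouse left out the smallest is 0.0714, so no count was made. The difference of Nags to Cps1 ran from -0.17 to 0.14 with each mouse left out and turned to -0.17 without anti-CD40 mouse 2, to -0.0036 without control mouse 3 and to -0.0051 without control mouse 4. No paired analysis was possible because the groups share no mouse number.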
